A study of Mus musculus with 8 samples.

Results

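A set of 10 genes known from macrophages that live in the marrow and other tissues were followed across 4 genotypes of mouse c-Kit+ marrow cells. They are C1qa, C1qb, C1qc, Axl, Vcam1, Cd5l, Slc40a1, Spic, Mrc1 and Cd163. They were taken by symbol from the deposited expression table, and all 10 were found among its 23293 mouse genes and among the 10854 with a mean of at least 1 FPKM, which were tested. FPKM is the fragment number scaled by transcript length and by library size, so that levels of different genes can be set side by side. The mean over all libraries decided which genes were tested. Over the 4 libraries that carry Flt3-ITD, 4 of the 10 (C1qa, Axl, Cd5l and Spic) averaged under that minimum and entered the test through the other libraries.

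The study measured messenger RNA in bone marrow enriched on magnetic beads for Cd117 (c-Kit), the receptor of stem cell factor that marks stem and progenitor cells. There were 8 libraries, 2 for each genotype, each from 1 mouse, taken 4 weeks after the animals received PIpC. PIpC induces interferon and so switches on the Mx1-cre transgene, whose promoter is active in blood cells and also outside them. The first group carried Mx1-cre, a floxed Smc3 allele and Flt3-ITD, an internal tandem duplication of the Flt3 receptor found in acute myeloid leukaemia. Its genotype is given as Smc3 fl/del Flt3-ITD while its title calls Smc3 het, and it is called the combined group here. The Flt3-ITD group carried Mx1-cre and Flt3-ITD. The Smc3 del/+ group carried Mx1-cre and 1 floxed allele of Smc3, a core subunit of the cohesin ring. The Smc3 fl/+ controls carried the floxed allele without Mx1-cre, so that every comparison with them also compares presence of the recombinase. Age was not used here.

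Resident macrophages of the marrow clear dying cells and the nuclei that maturing red cells expel, recycle their iron, and stand at the centre of erythroblastic islands, where red cell precursors attach to them. They are known for complement C1q, for engulfment receptors, and for the transcription factor Spic, which haem induces. They are not themselves defined by c-Kit, the marker used for the selection. The data hold no cell counts, and fewer macrophages and less of these RNAs per cell cannot be told apart.

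The libraries had between 8878 and 11076 mouse genes at 0, most in combined replicate 2, and between 10490 and 10843 at 1 FPKM or more. The combined replicates were the least alike, with a correlation across genes of 0.932 on the log2(FPKM + 1) scale, against 0.975 to 0.981 in the other groups. Smc3, which the deletion targets, had 103 and 136 FPKM in the combined group, 94.7 and 89.9 FPKM in Flt3-ITD, 135 and 133 FPKM in Smc3 del/+ and 119 and 112 FPKM in Smc3 fl/+. The deletion was not visible in that value, which covers the whole gene. Kit itself was at 37.4 to 60.1 FPKM in every library. Xist, the RNA of the inactive X chromosome, was at 500 to 657 FPKM in the combined and Smc3 fl/+ libraries and under 1 FPKM in the Flt3-ITD and Smc3 del/+ libraries. Flt3-ITD against Smc3 fl/+, Smc3 del/+ against Smc3 fl/+, and the combined group against Flt3-ITD or Smc3 del/+ therefore cross that line, and the interaction of both alleles runs along it and cannot be told apart from it. A comparison of the 4 libraries with Flt3-ITD and the 4 without it is balanced for it.

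The genes split by whether Flt3-ITD was present. In the fit that averages the effect of Flt3-ITD over both Smc3 states, C1qa, C1qb, C1qc, Axl, Cd5l, Spic and Mrc1 fell, and Vcam1, Slc40a1 and Cd163 did not pass the test. That is 7 of 10 lower and 0 higher at a limma adjusted p under 0.05, where 12.8% of all tested genes were lower. C1qa, Axl, Cd5l and Spic entered the test through the libraries without Flt3-ITD, which favours a lower call for them. Of the 6 genes that averaged 1 FPKM or more with Flt3-ITD, C1qb, C1qc and Mrc1 were lower. The median log2 fold change of the 10 genes was -1.76, against -0.01 over all tested genes. Between the 4 libraries with Flt3-ITD and the 4 without it, C1qb, C1qc, Axl, Cd5l and Spic did not overlap, 5 of 10 genes where 15.1% of all tested genes lay apart in that direction. Among these 5, the same limit holds for Axl, Cd5l and Spic. Those 5 passed under all 17 alternative settings of this fit. C1qa passed under 11 and Mrc1 under 9, and both were lost when either Smc3 fl/+ library, either Flt3-ITD library or Smc3 del/+ replicate 2 was left out. All 10 passed on the table the authors normalized, where the median of all tested genes moved by -0.44, and on values rescaled to equal spike-in totals, where it moved by -0.41.

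**Figure D1:**
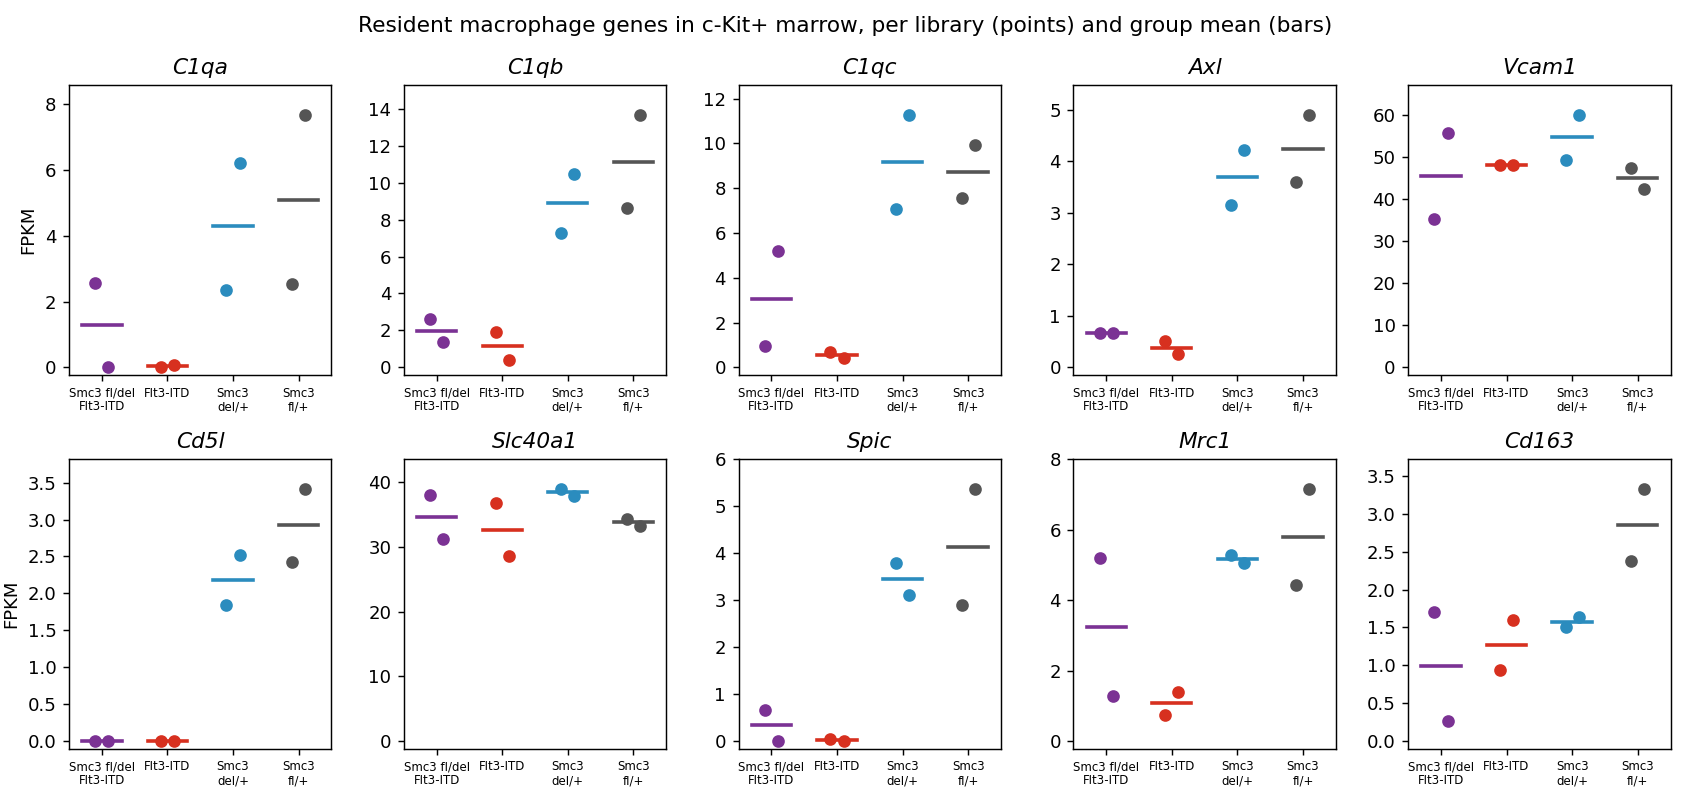
Each panel plots the FPKM of 1 gene (linear axis from 0) in the 8 libraries, grouped by genotype, with 1 point for each mouse and a bar at the group mean. Cd5l sits at 0 in all 4 libraries with Flt3-ITD, while Vcam1 spans 35.3 to 60.0 FPKM and Slc40a1 28.6 to 39.0 FPKM with the libraries with and without Flt3-ITD intermixed.

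C1q is the recognition part of the first complement component and is built from 3 chains, A, B and C, whose genes C1qa, C1qb and C1qc are neighbours on chromosome 4 of the mouse. Macrophages are its main source. C1qa was at 2.56 and 0 FPKM in the combined group, 0 and 0.0652 FPKM in Flt3-ITD, 2.37 and 6.22 FPKM in Smc3 del/+ and 2.53 and 7.67 FPKM in Smc3 fl/+. Combined replicate 1 therefore overlapped the groups without Flt3-ITD, and the other 3 libraries with Flt3-ITD were at or near 0. C1qb was at 2.62 and 1.36 FPKM in the combined group, 1.90 and 0.401 FPKM in Flt3-ITD, 7.29 and 10.5 FPKM in Smc3 del/+ and 8.64 and 13.7 FPKM in Smc3 fl/+. Every library with Flt3-ITD was below every library without it. C1qc was at 0.962 and 5.17 FPKM in the combined group, 0.662 and 0.404 FPKM in Flt3-ITD, 7.09 and 11.3 FPKM in Smc3 del/+ and 7.57 and 9.92 FPKM in Smc3 fl/+. Here too the libraries with and without Flt3-ITD did not overlap, and combined replicate 2 stood closest to the rest.

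The averaged effect of Flt3-ITD on the log2(FPKM + 1) scale, which understates the change of genes at low levels, was -1.90 ± 0.486 for C1qa (SE, limma adjusted p = 0.0239). It was -2.15 ± 0.308 for C1qb (SE, limma adjusted p = 0.00295) and -2.09 ± 0.386 for C1qc (SE, limma adjusted p = 0.00751). The summed level of the 3 chains was 6.14 and 6.53 FPKM in the combined group, 2.57 and 0.870 FPKM in Flt3-ITD, 16.7 and 27.9 FPKM in Smc3 del/+ and 18.7 and 31.2 FPKM in Smc3 fl/+. The combined libraries were alike in this sum and differed in its make-up, with C1qa at 41.6% in replicate 1 and 0% in replicate 2, and C1qc at 15.7% in replicate 1 and 79.2% in replicate 2. In the 4 libraries without Flt3-ITD C1qa made 13.5% to 24.6%, C1qb 37.5% to 46.1% and C1qc 31.7% to 42.3%. The make-up in the libraries with Flt3-ITD rests on levels at or under 5.17 FPKM, and the number of reads behind each value is unknown.

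**Figure D2:**
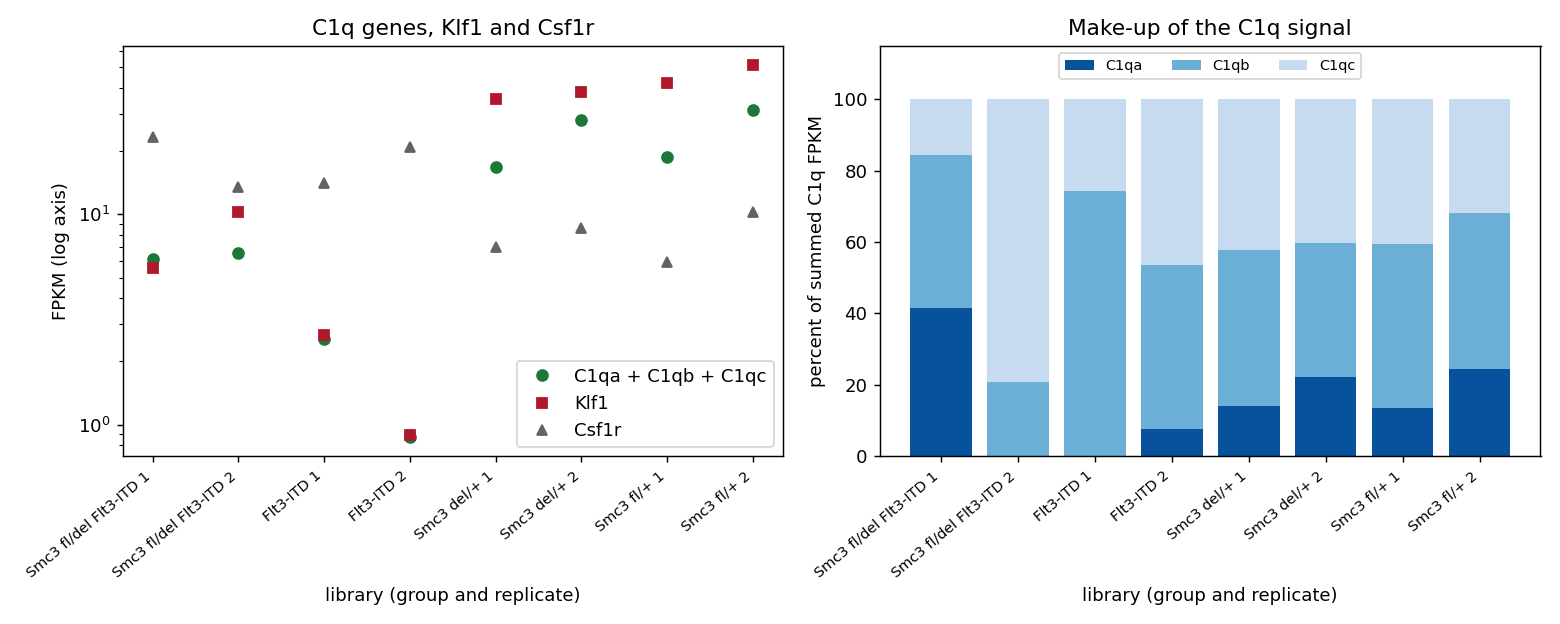
The left panel plots the summed FPKM of C1qa, C1qb and C1qc, and the FPKM of Klf1 and Csf1r, in each of the 8 libraries on a log axis; the right panel plots each chain's percent of the C1q sum. The C1q sum and Klf1 are lower in the 4 libraries with Flt3-ITD (C1q sum 0.870 to 6.53 FPKM, against 16.7 to 31.2 FPKM without it), while Csf1r is higher there.

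Spic and Cd5l had the lowest levels with Flt3-ITD. Spic is a transcription factor of the Ets family that red pulp and marrow macrophages need. It was at 0.669 and 0 FPKM in the combined group, 0.0527 and 0 FPKM in Flt3-ITD, 3.79 and 3.11 FPKM in Smc3 del/+ and 2.90 and 5.37 FPKM in Smc3 fl/+. The libraries with and without Flt3-ITD did not overlap, and the averaged effect was -2.03 ± 0.257 (SE, limma adjusted p = 0.00192). Cd5l, a protein secreted by tissue macrophages that carries scavenger receptor domains, was listed at 0 in all 4 libraries with Flt3-ITD. It was at 1.85 and 2.52 FPKM in Smc3 del/+ and 2.42 and 3.41 FPKM in Smc3 fl/+. No fold change is given against libraries at 0, and the averaged effect of Flt3-ITD on Cd5l had a limma adjusted p of 0.00148.

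Promoters are shown for 4 of the 5 genes that did not overlap between libraries with and without Flt3-ITD, chosen as examples in which 2 short motifs of macrophage factors can be seen. They come from RefSeq on GRCm38.p6 and run from 250 bases before to 50 after the gene's start; 7 of the 10 genes had an entry (not C1qa, Vcam1 or Slc40a1). Capitals mark GAGGAA, the core bound by Ets factors such as PU.1 and Spi-C, and TGCTGA, the core of a Maf recognition element, on either strand; no marked matches overlap. The C1qb and C1qc windows lie on the minus strand at chr4:136886151-136886450 and chr4:136892865-136893164, the Cd5l window on the plus strand at chr3:87357631-87357930, and the Spic window on the minus strand at chr10:88682974-88683273.
C1qb: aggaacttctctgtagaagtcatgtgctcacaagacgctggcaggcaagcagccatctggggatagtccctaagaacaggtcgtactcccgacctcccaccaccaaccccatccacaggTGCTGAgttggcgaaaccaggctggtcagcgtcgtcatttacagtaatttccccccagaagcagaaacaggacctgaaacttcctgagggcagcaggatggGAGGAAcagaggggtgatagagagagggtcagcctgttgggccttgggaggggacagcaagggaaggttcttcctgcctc
C1qc: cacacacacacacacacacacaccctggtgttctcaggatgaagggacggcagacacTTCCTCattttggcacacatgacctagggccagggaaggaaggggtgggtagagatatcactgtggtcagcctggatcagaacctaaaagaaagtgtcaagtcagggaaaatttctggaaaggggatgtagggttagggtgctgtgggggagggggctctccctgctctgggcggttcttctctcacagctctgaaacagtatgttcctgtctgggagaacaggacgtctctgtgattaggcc
Cd5l: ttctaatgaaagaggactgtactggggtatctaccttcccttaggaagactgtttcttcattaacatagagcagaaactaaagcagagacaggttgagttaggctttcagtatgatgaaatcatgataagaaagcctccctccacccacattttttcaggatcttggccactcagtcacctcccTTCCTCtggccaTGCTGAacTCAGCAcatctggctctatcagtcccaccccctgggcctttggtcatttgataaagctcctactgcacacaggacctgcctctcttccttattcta
Spic: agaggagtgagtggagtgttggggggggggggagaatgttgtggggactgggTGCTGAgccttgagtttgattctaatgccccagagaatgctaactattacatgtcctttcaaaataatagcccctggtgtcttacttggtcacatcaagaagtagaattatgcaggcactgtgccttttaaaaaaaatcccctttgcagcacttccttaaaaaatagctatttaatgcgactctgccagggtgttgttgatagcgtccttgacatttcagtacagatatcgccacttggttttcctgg
GAGGAA was found in 5 of the 7 windows (Axl, C1qb, C1qc, Cd5l and Mrc1) and in 28.3% of all 32851 promoters in the table. TGCTGA was found in 3 (C1qb, Cd5l and Spic) and in 19.5% of all promoters. In Cd5l, TGCTGA and its reverse complement face each other across 2 bases, an arrangement searched for after it was seen there; 2 promoters of the table, 0.00609%, hold it. TGATAA, a form of the GATA factor motif that overlaps neither of the marked motifs, was found in Cd5l and in 9.05% of all promoters. Searched on both strands, the E-box CACGTG (in 7.15% of all promoters), the AP-1 motif TGANTCA (7.81%) and the GATA form AGATAA (11.2%) had no match in the 7 windows. Neither had the CACCC box of Kruppel-like factors (3.56%), a core of the interferon-stimulated response element (3.44%) or a consensus NF-kB site (0.155%). These matches are descriptions of the letters and not of binding.

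Axl is a receptor tyrosine kinase of the TAM family, through which macrophages engulf dying cells by way of the bridging ligands Gas6 and protein S. Axl was at 0.668 and 0.663 FPKM in the combined group, 0.513 and 0.253 FPKM in Flt3-ITD, 3.16 and 4.23 FPKM in Smc3 del/+ and 3.60 and 4.90 FPKM in Smc3 fl/+. The groups with Flt3-ITD were well below both groups without it, and the libraries with and without Flt3-ITD did not overlap. The averaged effect was -1.70 ± 0.196 (SE, limma adjusted p = 0.00148), lower in 4 of 4 libraries. As a percent of the mean in Smc3 fl/+, Axl stood at 15.7% in the combined group, 9.02% in Flt3-ITD and 86.9% in Smc3 del/+.

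Mrc1 and Cd163, endocytic receptors of macrophages for mannose-bearing glycoproteins and for haemoglobin bound to haptoglobin, were less uniform. Mrc1 was at 5.20 and 1.29 FPKM in the combined group, 0.749 and 1.40 FPKM in Flt3-ITD, 5.29 and 5.07 FPKM in Smc3 del/+ and 4.43 and 7.16 FPKM in Smc3 fl/+. Combined replicate 1 was as high as the libraries without Flt3-ITD, and the other 3 libraries with it were lower. The averaged effect was -1.21 ± 0.349 (SE, limma adjusted p = 0.0377). Cd163 was at 1.70 and 0.271 FPKM in the combined group, 0.938 and 1.60 FPKM in Flt3-ITD, 1.51 and 1.64 FPKM in Smc3 del/+ and 2.37 and 3.33 FPKM in Smc3 fl/+. The groups overlapped, and only the Smc3 fl/+ libraries stood above all the others. The averaged effect on Cd163 was -0.62 ± 0.267 (SE, limma adjusted p = 0.125), and without combined replicate 1 Cd163 also passed, which made the count 8.

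Slc40a1 and Vcam1 were by level the most abundant of the 10 and did not follow the rest. Slc40a1 is ferroportin, the exporter through which macrophages release iron, and erythroid precursors express it too. It was at 38.1 and 31.3 FPKM in the combined group, 36.7 and 28.6 FPKM in Flt3-ITD, 39.0 and 37.9 FPKM in Smc3 del/+ and 34.4 and 33.3 FPKM in Smc3 fl/+. The libraries with and without Flt3-ITD overlapped, and the averaged effect was -0.11 ± 0.112 (SE, limma adjusted p = 0.530), with a 95% interval of -0.36 to 0.15. Vcam1, the adhesion molecule that binds the integrin of erythroblasts and progenitors and that stromal and endothelial cells also carry, was at 35.3 and 55.7 FPKM in the combined group. It was at 48.3 and 48.2 FPKM in Flt3-ITD, 49.4 and 60.0 FPKM in Smc3 del/+ and 47.5 and 42.4 FPKM in Smc3 fl/+. The combined libraries bracketed nearly all others, and the averaged effect was -0.09 ± 0.160 (SE, limma adjusted p = 0.701), with a 95% interval of -0.46 to 0.27. Both genes were called lower on the table the authors normalized and after rescaling to equal spike-in totals, where the typical gene was also lower.

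Against the Smc3 fl/+ controls alone, the Flt3-ITD group gave the same 7 genes. They were lower at a limma adjusted p under 0.05 where 9.50% of all tested genes were. The log2 fold change was -2.42 ± 0.677 for C1qa (SE, limma adjusted p = 0.0459), -2.56 ± 0.410 for C1qb (limma adjusted p = 0.00771) and -2.66 ± 0.498 for C1qc (limma adjusted p = 0.0130). It was -1.92 ± 0.259 for Axl (SE, limma adjusted p = 0.00446), -2.28 ± 0.352 for Spic (limma adjusted p = 0.00682) and -1.70 ± 0.456 for Mrc1 (limma adjusted p = 0.0403), and Cd5l had a limma adjusted p of 0.00474. Vcam1 (0.10 ± 0.216), Slc40a1 (-0.06 ± 0.162) and Cd163 (-0.77 ± 0.384) did not pass. With 2 libraries a group the number of genes that passed depended on single mice. Leaving out 1 mouse of these groups also leaves its group with 1 library. The log2 fold change then spanned -3.07 to -1.77 for C1qa, -3.08 to -2.03 for C1qb and -2.84 to -2.49 for C1qc. It spanned -2.10 to -1.74 for Axl, -2.63 to -1.93 for Spic and -2.00 to -1.41 for Mrc1.

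In the combined group against Smc3 fl/+, 4 of 10 genes fell, where 6.38% of all tested genes did. These were C1qb (log2 fold change -2.02 ± 0.410, SE, limma adjusted p = 0.0225), Axl (-1.64 ± 0.259, limma adjusted p = 0.010), Spic (-1.95 ± 0.352, limma adjusted p = 0.0157) and Cd5l (limma adjusted p = 0.00733). C1qa (-1.55 ± 0.677), C1qc (-1.47 ± 0.498), Cd163 (-1.04 ± 0.384) and Mrc1 (-0.82 ± 0.456) did not pass, and Slc40a1 (0.03 ± 0.162) and Vcam1 (-0.02 ± 0.216) were near 0. The count was not stable when 1 library was left out. The log2 fold change then spanned -2.33 to -1.71 for C1qb, -1.82 to -1.46 for Axl and -2.32 to -1.58 for Spic. Over the same pair of groups fitted alone the count was 0, and it was 10 on the normalized table and 10 with equal spike-in totals.

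Against Smc3 del/+, the combined group had 3 genes lower, where 2.89% of all tested genes were. They were Axl (log2 fold change -1.48 ± 0.259, SE, limma adjusted p = 0.0230), Spic (-1.78 ± 0.352, limma adjusted p = 0.0327) and Cd5l (limma adjusted p = 0.0208), while C1qb (-1.74 ± 0.410, limma adjusted p = 0.0557) just missed the threshold. C1qa (-1.39 ± 0.677), C1qc (-1.52 ± 0.498), Mrc1 (-0.71 ± 0.456), Cd163 (-0.47 ± 0.384), Vcam1 (-0.29 ± 0.216) and Slc40a1 (-0.15 ± 0.162) did not pass. The count was not stable when 1 library was left out. The log2 fold change then spanned -1.65 to -1.32 for Axl, -2.15 to -1.41 for Spic and -2.05 to -1.43 for C1qb. These comparisons share libraries and are not separate evidence.

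Flt3-ITD against Smc3 del/+ compares libraries that carry Mx1-cre and have low Xist on both sides, and was added after the data were seen. This comparison also changes the Smc3 genotype, so Flt3-ITD and the Smc3 deletion cannot be told apart in it. In it C1qb (log2 fold change -2.27, limma adjusted p = 0.0194), C1qc (-2.70, limma adjusted p = 0.0207), Axl (-1.76, limma adjusted p = 0.0110), Spic (-2.11, limma adjusted p = 0.0156) and Cd5l (limma adjusted p = 0.0152) were lower. That is 5 of 10 genes, where 5.34% of all tested genes were lower. C1qa (-2.26, limma adjusted p = 0.0796) and Mrc1 (-1.59, limma adjusted p = 0.0706) did not pass there.

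**Figure D3:**
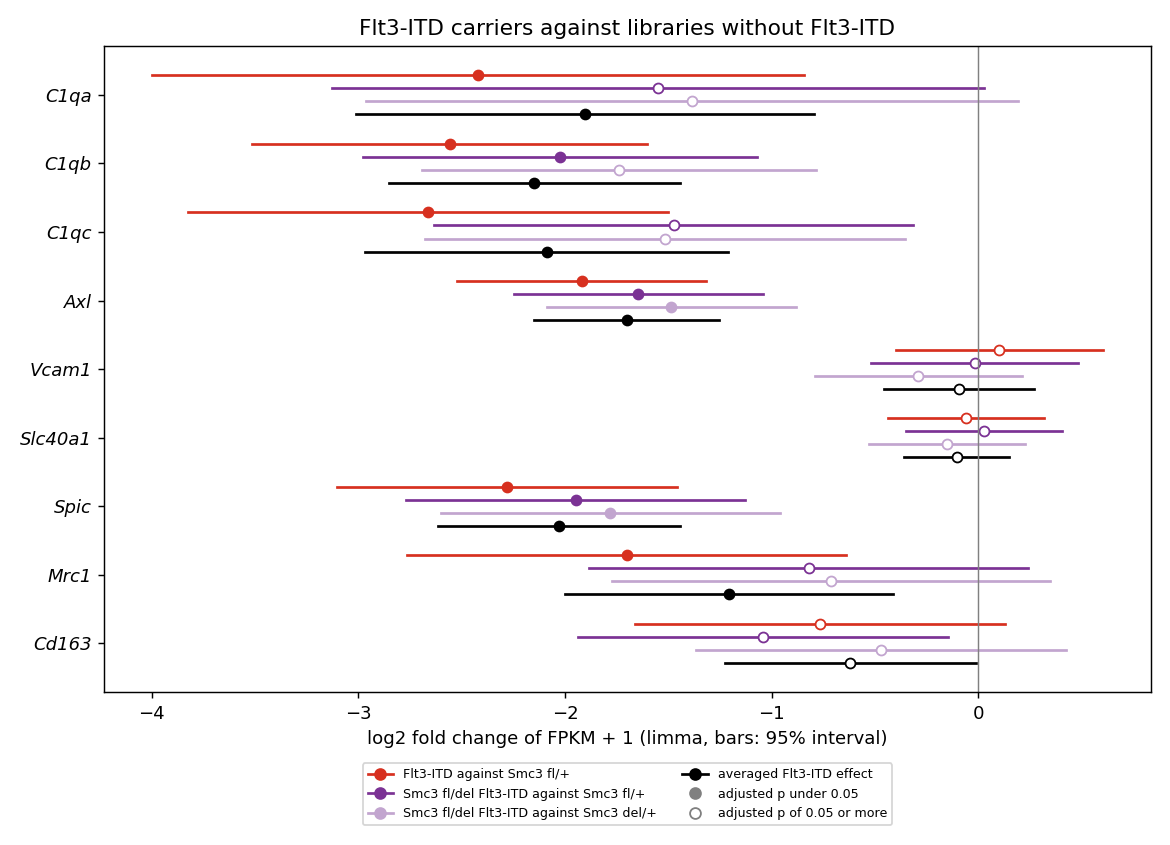
The plot gives the log2 fold change with its 95% interval for 9 genes (Cd5l is left out because it is at 0 with Flt3-ITD) in 4 comparisons, on the log2(FPKM + 1) scale; filled points have a limma adjusted p under 0.05. The intervals of C1qb, C1qc, Axl and Spic lie left of 0 in all 4 comparisons of libraries with Flt3-ITD against libraries without it. Those of C1qa, Mrc1 and Cd163 do so in some of them, with all their points left of 0. The intervals of Vcam1 and Slc40a1 cover 0.

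Loss of 1 Smc3 allele alone did not pass the test for any of the 10 genes. In Smc3 del/+ against Smc3 fl/+, limma called 0 of 10 genes and 0.00921% of all tested genes. At an unadjusted p under 0.05 it called 0 of 10 genes and 4.55% of all tested genes. The log2 fold changes ran from -0.57 ± 0.384 for Cd163 to 0.27 ± 0.216 for Vcam1 (SE). As a percent of the Smc3 fl/+ mean, the Smc3 del/+ mean was 84.2% for C1qa, 79.6% for C1qb, 105% for C1qc, 83.4% for Spic and 55.2% for Cd163. The 95% interval of the log2 fold change was widest for C1qa, at -1.74 to 1.41. It was -1.24 to 0.67 for C1qb, -0.76 to 0.44 for Axl, -0.93 to 0.34 for Cd5l and -0.99 to 0.65 for Spic.

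Adding the Smc3 deletion to Flt3-ITD likewise gave 0 of 10 genes by limma, where 0.286% of all tested genes passed. At an unadjusted p under 0.05 it gave 1 of 10 genes and 1196 of the 10854 tested. The log2 fold changes of the combined group against Flt3-ITD ran from -0.28 ± 0.384 for Cd163 to 1.19 ± 0.498 for C1qc (SE, limma adjusted p = 0.447). The values of C1qc in the combined group, 0.962 and 5.17 FPKM, were both above those in Flt3-ITD, 0.662 and 0.404 FPKM. Without combined replicate 1 the count was 1, C1qc at 2.01 (limma adjusted p = 0.00476). The test of whether the Smc3 deletion acts differently with and without Flt3-ITD called 0 of 10 genes, where 0.0369% of all tested genes passed, and its estimates ran from -0.39 for Vcam1 to 1.15 for C1qc; without combined replicate 1 that count was also 1, C1qc at 1.97 (limma adjusted p = 0.0178), in a contrast aligned with the Xist levels. Averaged over both Flt3 states, the Smc3 deletion called 0 of 10 genes and 0.00% of all tested genes, with estimates from -0.42 for Cd163 to 0.61 for C1qc.

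Other genes of macrophages did not move as one. Of 18 macrophage core genes, 10 were tested, and under the averaged effect of Flt3-ITD 4 fell and 4 rose, where 12.8% and 10.9% of all tested genes did, with a median log2 fold change of 0.17. Fcna, Hpgd and Maf were among those that fell. Each of them averaged under 1 FPKM in the combined group and in Flt3-ITD, and entered the test through the other libraries. Fcna, a ficolin that starts the lectin pathway of complement, was at 0.273 and 0.462 FPKM in the combined group, 0.251 and 0 FPKM in Flt3-ITD, 3.32 and 4.21 FPKM in Smc3 del/+ and 3.63 and 4.56 FPKM in Smc3 fl/+, without overlap. Its averaged effect was -1.99 ± 0.196 (SE, limma adjusted p = 0.00112). Hpgd, which degrades prostaglandins, was listed at 0 in both Flt3-ITD libraries, at 0.265 and 0.211 FPKM in the combined group, 1.35 and 5.04 FPKM in Smc3 del/+ and 3.97 and 2.95 FPKM in Smc3 fl/+ (limma adjusted p = 0.00482). Maf, a transcription factor of mature macrophages, changed by -1.45 ± 0.265 (SE, limma adjusted p = 0.00725).

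The genes that rose are shared by macrophages with monocytes and their precursors. Csf1r, the receptor of macrophage colony-stimulating factor, was at 23.3 and 13.6 FPKM in the combined group, 14.0 and 21.0 FPKM in Flt3-ITD, 6.96 and 8.59 FPKM in Smc3 del/+ and 5.92 and 10.3 FPKM in Smc3 fl/+. Every library with Flt3-ITD was above every library without it, and the averaged effect was 1.07 ± 0.224 (SE, limma adjusted p = 0.0119). Cd68, a lysosomal glycoprotein of phagocytes, changed by 0.99 ± 0.235 (SE, limma adjusted p = 0.0189), Emr1, which encodes F4/80, by 0.77 ± 0.186 (limma adjusted p = 0.0198) and Lgals3, galectin-3, by 1.26 ± 0.229 (limma adjusted p = 0.00702). On the normalized table these 4 kept their sign and only Lgals3 passed (0.83, limma adjusted p = 0.0197), with Csf1r at 0.62 (limma adjusted p = 0.0642). The rise of Emr1 was mainly in the Flt3-ITD group, at 4.70 and 4.30 FPKM. The combined group, at 2.01 and 2.76 FPKM, did not pass against Smc3 fl/+, at 1.79 and 1.89 FPKM (0.24 ± 0.253, SE, limma adjusted p = 0.579). Mertk and Siglec1, engulfment and sialic acid receptors of resident macrophages, had means under 1 FPKM and were not tested. Mertk was at 0.0739 and 0 FPKM in the combined group, 0 and 0.0168 FPKM in Flt3-ITD, 1.26 and 0.696 FPKM in Smc3 del/+ and 0.551 and 1.55 FPKM in Smc3 fl/+. Siglec1 was at 0.151 and 0.113 FPKM in the combined group, 0.01 and 0.0636 FPKM in Flt3-ITD, 0.628 and 0.595 FPKM in Smc3 del/+ and 0.493 and 1.86 FPKM in Smc3 fl/+. Neither overlapped between libraries with and without Flt3-ITD.

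Of 14 monocyte genes 12 were tested, and 10 rose and 0 fell under the averaged effect of Flt3-ITD, with a median log2 fold change of 0.96. Of all tested genes, 10.9% rose and 12.8% fell. Ms4a6c (1.45 ± 0.166, SE, limma adjusted p = 0.00148), Ly86 (1.35 ± 0.147, limma adjusted p = 0.00148), which pairs with a Toll-like receptor homologue, Cybb (1.004 ± 0.175, limma adjusted p = 0.00628), the catalytic subunit of the phagocyte oxidase, and Ly6c1 (0.75 ± 0.120, limma adjusted p = 0.00438) were among them. With the normalized values, 5 rose and 0 fell. The summed level of the monocyte list was 4123 and 3376 FPKM in the combined group, 4715 and 4818 FPKM in Flt3-ITD, 2236 and 2358 FPKM in Smc3 del/+ and 2325 and 2286 FPKM in Smc3 fl/+.

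Of 14 other complement genes 8 were tested, and 3 rose and 0 fell under the averaged effect, where 10.9% and 12.8% of all tested genes did. Those that rose were C3, the central component, by 0.79 ± 0.215 (SE, limma adjusted p = 0.0300), C5ar1, the C5a receptor, by 1.01 ± 0.164 (limma adjusted p = 0.00479), and Cd93, once thought to be a C1q receptor, by 0.85 ± 0.127 (limma adjusted p = 0.00336). With the normalized values C5ar1 (0.57, limma adjusted p = 0.0307) and Cd93 (0.42, limma adjusted p = 0.0456) rose, C3 (0.38, limma adjusted p = 0.172) did not pass, and Cr1l (-0.40, limma adjusted p = 0.0263) and Cd55 (-0.78, limma adjusted p = 0.0135), regulators of complement on the cell surface, fell. With equal spike-in totals 1 rose and 2 fell. The median of all tested genes was -0.44 with the normalized values and -0.41 with equal spike-in totals. Of 15 genes of the TAM receptors and engulfment, 10 were tested, and 2 rose and 0 fell, namely Dock1 (0.59 ± 0.140, SE, limma adjusted p = 0.0185) and the integrin Itgav (0.45 ± 0.141, limma adjusted p = 0.0481), with 0 in either direction on the normalized table. Gas6, a ligand of Axl, averaged under 1 FPKM and was not tested. Gas6 stood at 0.0416 and 0.133 FPKM in the combined group, 0.0691 and 0.0709 FPKM in Flt3-ITD, 1.08 and 0.574 FPKM in Smc3 del/+ and 0.492 and 0.910 FPKM in Smc3 fl/+.

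Genes of haem and iron handling were divided. Of 15 listed 13 were tested, and 4 fell and 2 rose, where 12.8% and 10.9% of all tested genes did under the averaged effect. Hmox1, haem oxygenase 1, which breaks down haem, was at 8.21 and 4.53 FPKM in the combined group, 6.97 and 5.79 FPKM in Flt3-ITD, 17.5 and 25.3 FPKM in Smc3 del/+ and 28.0 and 36.0 FPKM in Smc3 fl/+. It did not overlap between libraries with and without Flt3-ITD, and its averaged effect was -1.89 ± 0.213 (SE, limma adjusted p = 0.00148). Fth1, the heavy chain of ferritin (-0.85 ± 0.132, limma adjusted p = 0.00402), Nqo1 (-1.68 ± 0.249, limma adjusted p = 0.00332), a quinone reductase, and Gclm (-0.96 ± 0.280, limma adjusted p = 0.0391), of glutathione synthesis, also fell. Cp, ceruloplasmin, the ferroxidase that works beside ferroportin, rose by 2.65 ± 0.286 (SE, limma adjusted p = 0.00146), and Hp, haptoglobin, by 0.63 ± 0.173 (limma adjusted p = 0.0309). Hp did not pass on the normalized table (0.22, limma adjusted p = 0.358), where 7 of the list fell and 1 rose. The list median there was -0.39, and that of all tested genes was -0.44.

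Liver X receptors drive lipid export in macrophages that engulf cells. Of 10 genes listed for them 8 were tested, and 2 fell and 0 rose, where 12.8% and 10.9% of all tested genes did. The number that fell was 3 with the normalized values and 4 with equal spike-in totals. The medians of this list were then -0.60 and -0.57, where those of all tested genes were also lower, at -0.44 and -0.41. Apoe, the apolipoprotein that macrophages secrete, was at 11.0 and 12.6 FPKM in the combined group, 5.45 and 9.91 FPKM in Flt3-ITD, 26.9 and 31.2 FPKM in Smc3 del/+ and 36.2 and 37.1 FPKM in Smc3 fl/+, an averaged effect of -1.70 ± 0.228 (SE, limma adjusted p = 0.00231). Lpcat3 changed by -0.55 ± 0.0951 (SE, limma adjusted p = 0.00586). Of 10 genes for contacts in erythroblastic islands 6 were tested, and 2 fell and 1 rose, where 12.8% and 10.9% of all tested genes did. Both on the normalized table and with equal spike-in totals 5 of them fell and 0 rose. The median of this list was -0.57 in both, near those of all tested genes, at -0.44 and -0.41. Itga4, the alpha4 integrin chain that binds Vcam1, was at 90.5 and 97.0 FPKM in the combined group, 68.3 and 65.7 FPKM in Flt3-ITD, 111 and 106 FPKM in Smc3 del/+ and 121 and 117 FPKM in Smc3 fl/+. Its averaged effect was -0.52 ± 0.132 (SE, limma adjusted p = 0.0237). The others were Epor, described below with the erythroid genes, and Itgav.

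The erythroid genes moved in the same direction as the 7 genes that fell. Klf1, the erythroid Kruppel-like factor, was at 5.56 and 10.2 FPKM in the combined group, 2.68 and 0.897 FPKM in Flt3-ITD, 35.2 and 38.1 FPKM in Smc3 del/+ and 42.1 and 51.5 FPKM in Smc3 fl/+. The libraries with Flt3-ITD were all below those without it, and within them the Flt3-ITD group was below the combined group. The averaged effect on Klf1 was -3.15 ± 0.419 (SE, limma adjusted p = 0.00222). Gata1, the master factor of red cells, changed by -2.97 ± 0.370 (SE, limma adjusted p = 0.00187), and Epor, the erythropoietin receptor, by -2.41 ± 0.311 (limma adjusted p = 0.00202). The Gata1 partner Zfpm1 (-2.48 ± 0.223, limma adjusted p = 0.000823) and the membrane skeleton genes Epb4.2 (-3.03 ± 0.210, limma adjusted p = 0.000554) and Ank1 (-3.07 ± 0.271, limma adjusted p = 0.000821) fell as well. Epor and Epb4.2 averaged under 1 FPKM in the combined group and in Flt3-ITD, and entered the test through the other libraries.

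Of 30 erythroid genes listed, 29 were in the table and 27 were tested. Under the averaged effect 25 fell and 0 rose, where 12.8% and 10.9% of all tested genes did, and the count was the same on the normalized table. The median log2 fold change was -2.94, against -0.01 over all tested genes. In Flt3-ITD against Smc3 fl/+ 25 fell, in the combined group against Smc3 fl/+ 24, and in the combined group against Smc3 del/+ 22. Of all tested genes, 9.50%, 6.38% and 2.89% were lower in these comparisons. In the combined group against Flt3-ITD 0 passed, with a median of 0.78 for the erythroid list and 0.30 for the 10 macrophage genes. In Smc3 del/+ against Smc3 fl/+ 0 passed, with medians of -0.25 and -0.16. Relative to the Smc3 fl/+ mean, Klf1 stood at 16.9% in the combined group, 3.82% in Flt3-ITD and 78.4% in Smc3 del/+, and C1qb at 17.9% in the combined group, 10.3% in Flt3-ITD and 79.6% in Smc3 del/+. The macrophage genes were not alike in this. In the same order of groups, C1qa stood at 25.1%, 0.639% and 84.2%, and C1qc at 35.1%, 6.10% and 105%. Cd163 stood at 34.7%, 44.5% and 55.2%, and Slc40a1 at 102%, 96.6% and 114%.

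**Figure D4:**
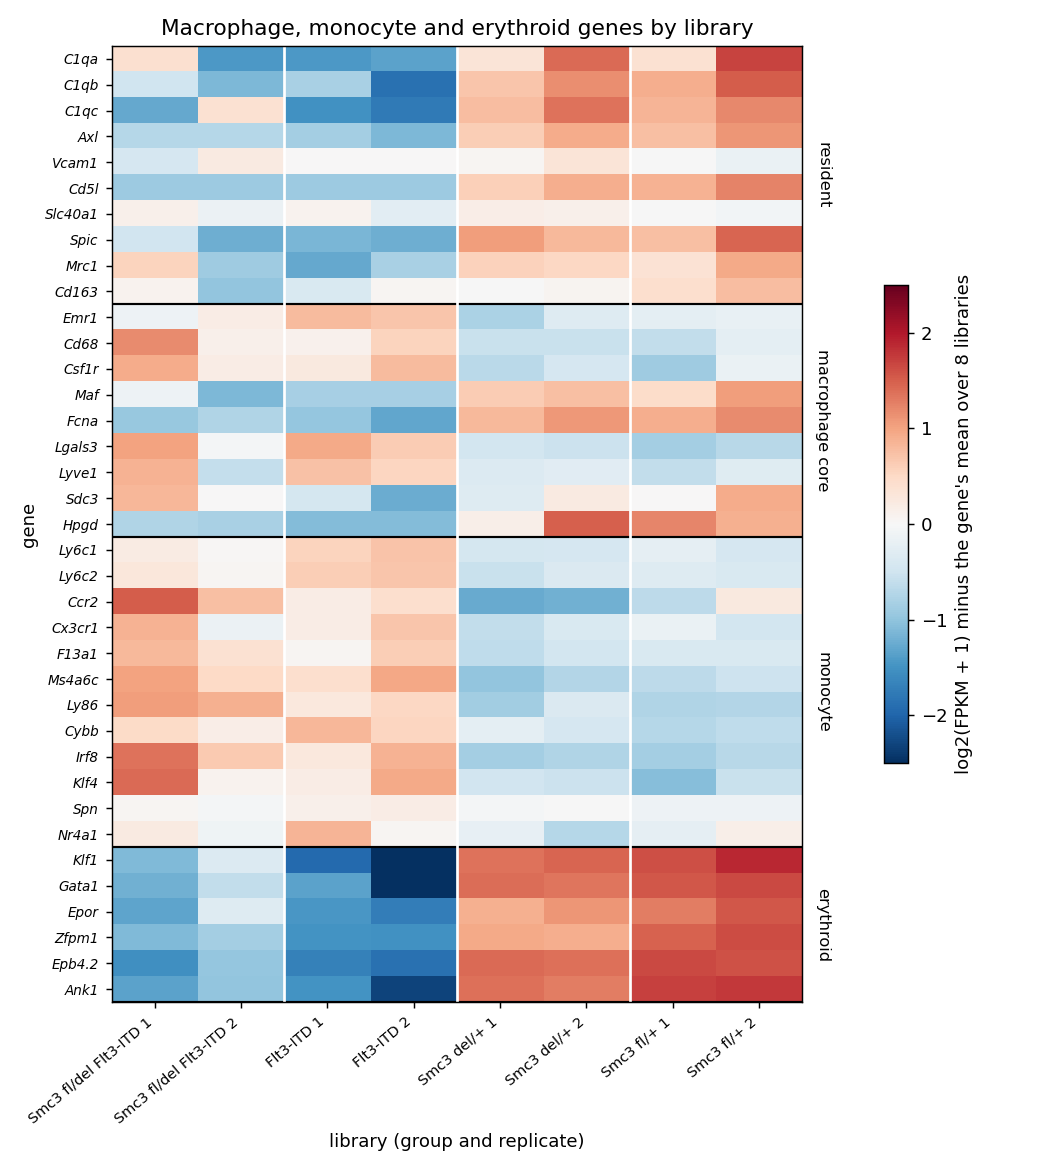
The map shows log2(FPKM + 1) minus each gene's mean over the 8 libraries (colour scale) for the 10 macrophage genes, tested macrophage core and monocyte genes and 6 erythroid genes, with 1 column for each library; colours saturate at the ends of the scale. C1qb, Axl, Cd5l and Spic are low in the same 4 columns as the erythroid genes, Vcam1 and Slc40a1 show little contrast, and the monocyte genes run the other way.

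Genes were ranked by how closely their pattern followed the mean pattern of the 3 C1q genes, as the root mean square difference over 8 libraries of log2(FPKM + 1) centred on each gene's mean. The nearest outside the 10 genes were Trim10 at 0.272, Acss1 at 0.277, Fcna at 0.290, Samd14 at 0.308, Lmna at 0.316, Adcy6 at 0.325, Ttll12 at 0.326 and Myo1d at 0.328, against a median of 1.13 over all 10854 tested genes. Trim10 is known from erythroid cells, and Fcna from macrophages. Further down, Sptb (0.392) and Tspan33 (0.395) of the erythroid list held ranks 28 and 29 of all tested genes. Of the 10 genes themselves, C1qb lay at 0.242, Axl at 0.313, Spic at 0.335, Cd5l at 0.381, C1qa at 0.448 and C1qc at 0.510. C1qa and C1qc held ranks 70 and 112, so many other genes lay nearer to the mean C1q pattern than they did. Mrc1 lay at 0.589, Cd163 at 0.903, Slc40a1 at 1.05 and Vcam1 at 1.10. Klf1 lay at 0.722. The measure rests on 8 libraries of 4 genotypes, in which many genes share the contrast of Flt3-ITD.

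Some markers of other marrow cells that carry Vcam1, Axl or Mrc1 also differed between libraries with and without Flt3-ITD, and their part in these results was not tested. The summed level of 13 stromal genes was 5.32 and 10.7 FPKM in the combined group, 7.64 and 8.75 FPKM in Flt3-ITD, 14.7 and 11.5 FPKM in Smc3 del/+ and 13.8 and 20.0 FPKM in Smc3 fl/+. Of these, 2 were tested and Cxcl12, the main chemokine of marrow stroma, fell (-1.06 ± 0.308, SE, limma adjusted p = 0.0383). Cxcl12 was the largest part of the stromal sum in every library. The untested stromal genes did not move as one. Col1a1 was higher with Flt3-ITD, at 0.987 to 2.05 FPKM against 0.280 to 0.652 FPKM without it. Col1a2, Kitl and Alpl were lower with Flt3-ITD, also without overlap. The summed level of 11 endothelial genes was 33.9 and 31.0 FPKM in the combined group, 27.7 and 42.3 FPKM in Flt3-ITD, 34.8 and 31.0 FPKM in Smc3 del/+ and 44.0 and 44.6 FPKM in Smc3 fl/+. Of 6 tested, 3 fell (Eng, Vwf and Plvap) and 1 rose (Pecam1), where 12.8% and 10.9% of all tested genes did. Plvap averaged under 1 FPKM in the combined group and in Flt3-ITD, and entered the test through the other libraries. The endothelial sums of the libraries with and without Flt3-ITD overlapped. With the normalized values 3 fell and 0 rose. The macrophage core sum, led by Cd68 and Lgals3, was 255 and 124 FPKM in the combined group, 195 and 187 FPKM in Flt3-ITD, 94.5 and 101 FPKM in Smc3 del/+ and 83.8 and 108 FPKM in Smc3 fl/+. Within that list Clec4f was at 0 in every library, and Marco and Vsig4 were at 0 in all 4 libraries with Flt3-ITD and at most 0.346 FPKM elsewhere.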

How the data were processed

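Messenger RNA of Cd117-selected marrow was measured in 8 libraries. The authors deposited FPKM values in a first table, used for the main results, and a normalized second one, whose making the sources used here do not describe. Per the submitters' processing notes, the build was mm9 and the tools Cufflinks 2.0.0 and TopHat. Each table has 23385 rows, 92 of them spike-in RNAs. The depth in reads is unknown.

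Groups came from the genotype labels. The 10854 genes whose mean reached 1 FPKM were tested in limma 3.58.1 (R 4.3.3) after taking log2(FPKM + 1) (variance trend, Benjamini-Hochberg adjustment over all tested genes, threshold 0.05). One fit with 4 group means gave the pairwise comparisons and the interaction, and an additive fit the averaged effects. Replicates are separate mice. An exact permutation test of 2 against 2 cannot go below 0.333. The members and the 15 gene lists were chosen with earlier results of these data known, so no p is adjusted over a list. Besides the 10 genes, the text names Klf1, Gata1, Epor and 3 other erythroid genes with the smallest p in Flt3-ITD against Smc3 fl/+, up to 4 genes with the smallest p of each other list, 5 fixed macrophage genes and the 8 genes nearest to C1q in pattern; a few more list members are named to account for a count or with their values, chosen after their values were seen, and some list members are not reported here. Alternatives were the pseudocount, the filter, the scaling, the variance trend, a replicate block, the groups fitted and leaving out each library. The fits were tested on simulated data. Motifs were searched in RefSeq promoters (Python 3.11.15, pandas 2.3.3), and plots were drawn with matplotlib 3.10.9.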

Additional observations from a re-analysis of the deposited data

How the results depend on the processing

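Of 44 fold changes of 9 of the 10 genes (not Cd5l) that were recomputed under each alternative, in some comparisons only the highest and the lowest, 661 values kept their direction and side of the threshold, 67 lost their call, 36 gained one and 15 changed sign; the cause was not tested. With the authors' normalized values, which shifted the typical tested gene (the median) by -0.58 in Flt3-ITD and by -0.67 in the combined group against Smc3 fl/+, and with equal spike-in totals, Vcam1 was at -0.42 and -0.43 in Flt3-ITD against Smc3 fl/+ and at -0.086 and -0.093 in Smc3 del/+ against Smc3 fl/+, and Slc40a1 at -0.68 and -0.66 in the combined group against Smc3 fl/+. The number of the 10 genes called was then 10 and 10 in the combined group against Smc3 fl/+ and 5 and 5 against Smc3 del/+, and with only the groups compared in the fit 0 and 0. Within the high Xist libraries (combined against Smc3 fl/+, which also differ in Mx1-cre and the Smc3 deletion) 4 genes passed, against 7 for the averaged effect.

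Leaving out 1 library at a time gave 0 to 8 called genes in Flt3-ITD against Smc3 fl/+, 0 to 1 in the combined group against Flt3-ITD, 0 to 7 against Smc3 fl/+ and 0 to 6 against Smc3 del/+, 5 to 8 for the averaged effect and 0 to 1 for the interaction. The log2 fold change then spanned -0.23 to 0.12 for Slc40a1 in Flt3-ITD against Smc3 fl/+ and -0.82 to 0.27 for Cd163 in the combined group against Flt3-ITD. In the combined group against Smc3 fl/+ it spanned -0.34 to 0.30 for Vcam1 and -0.11 to 0.17 for Slc40a1. Against Smc3 del/+ it spanned -0.61 to 0.031 for Vcam1, -1.43 to 0.0062 for Mrc1 and -1.02 to 0.072 for Cd163, and for the averaged effect on Vcam1 -0.18 to 0.073. Where a group is left with 1 library, that library is assumed to vary like the other groups.

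The replicate numbers share nothing but the number (correlations of deviations between -0.113 and 0.0229), and with the replicate as a block 6 genes passed for the averaged effect, 5 in Flt3-ITD against Smc3 fl/+, 4 in the combined group against Smc3 fl/+ and 2 against Smc3 del/+, and 0 in the other comparisons. With the numbers of the combined group crossed, a setting added after the data were seen, 4 passed against Smc3 fl/+. Most of the 10 genes lie under 10 FPKM, and the number of reads behind these values is unknown.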

Other observations

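The invariant chain Cd74, which guides antigen presentation, was at 1036 and 542 FPKM in the combined group, 128 and 55.7 FPKM in Flt3-ITD, 50.5 and 54.7 FPKM in Smc3 del/+ and 50.1 and 59.4 FPKM in Smc3 fl/+ (combined against Flt3-ITD 3.13 ± 0.408, SE, limma adjusted p = 0.0352).

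The summed level of 10 dendritic cell genes, most of it Cd74, was 1367 and 732 FPKM in the combined group, 188 and 81.5 FPKM in Flt3-ITD, 76.1 and 79.4 FPKM in Smc3 del/+ and 80.1 and 88.3 FPKM in Smc3 fl/+. Combined replicate 1 held the highest of these sums, and it also had the highest Mrc1 and Cd163 of the libraries with Flt3-ITD. The part of dendritic cells in those values was not tested. Cd209a, a lectin of dendritic cells, was at 20.4 and 5.56 FPKM in the combined group and under 1 FPKM in the other libraries, and did not pass against Flt3-ITD (3.04 ± 0.549, SE, limma adjusted p = 0.1004). Zbtb46 of the same list was at 1.88 and 0.635 FPKM in the combined group and 0.763 and 0.188 FPKM in Flt3-ITD. It was higher without Flt3-ITD, at 2.62 and 3.01 FPKM in Smc3 del/+ and 3.65 and 2.65 FPKM in Smc3 fl/+. Of the list 7 genes were tested, and 2 rose and 1 fell under the averaged effect of Flt3-ITD. Of all tested genes, 10.9% rose and 12.8% fell.

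Of 10 B cell genes tested, 9 fell under the averaged effect of Flt3-ITD, where 12.8% of all tested genes did, with a median log2 fold change of -2.32. Most of these genes averaged under 1 FPKM with Flt3-ITD and entered the test through the other libraries. The sum of the list was 8.19 and 13.7 FPKM in the combined group, 5.32 and 10.04 FPKM in Flt3-ITD, 37.7 and 54.7 FPKM in Smc3 del/+ and 218 and 88.1 FPKM in Smc3 fl/+. Of 10 neutrophil genes tested, 5 rose (Cd177, Lcn2, Ltf, Mmp8 and Mmp9) and 0 fell, where 10.9% and 12.8% of all tested genes did, with a median of 0.98. Of 8 stem and progenitor genes tested, Cd34 rose (0.68, limma adjusted p = 0.00884) and Gata2 fell (-1.06, limma adjusted p = 0.010), where 10.9% and 12.8% of all tested genes did, with a median of -0.25 for the list. On the normalized table and with equal spike-in totals 5 of these 8 fell and 0 rose. The list medians there were -0.69 and -0.66, where those of all tested genes were also lower, at -0.44 and -0.41.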
